A study of Homo sapiens with 12 samples.

Results

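Immediate early genes were described in U937 cells that had been made to express PML-RARA. The members came from a list of 41 genes, without the KLF and DUSP families. The list was chosen with earlier results of these data known. Shares of members given beside shares of all genes may therefore reflect that choice. For each gene the Affymetrix probe set with the highest mean signal was taken, among probe sets whose annotation gives a single gene symbol. Of the 41 genes, 37 were measured this way, out of 19775 genes in the table, and 35 were bright enough to be tested, out of 13959. CCN1 and CCN2, which encode matricellular proteins, were measured but lay below the signal filter, with signals of 20.9 to 302.4 and of 5.9 to 98.8. EGR2, BTG2, MAFK and PER1 were not analysed here, because no probe set carried their symbol alone.

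U937 is a human monocytic line established from a histiocytic lymphoma. Electroporation brought in a plasmid coding for GFP by itself, for a GFP-tagged wild-type PML-RARA named PRWT, or for GFP-tagged PR2VR, and the cells were sorted for GFP and harvested for RNA at 6 h or 9 h. PR2VR was taken to be the protease-resistant PML-RARA of the series title, although its label also calls the cDNA wild type, and the titles count hours after infection for PRWT and PR2VR but after transfection for GFP. Each of the 6 groups of construct and hour had 2 arrays, which the titles number 1 and 2, so each construct had 4 arrays and each hour 6. Expression was thus transient, in a line that does not carry the fusion gene itself, and every group, the GFP control included, had been electroporated and sorted. No label says whether same-group arrays came from separate electroporations, so p-values measure the spread between these arrays, which may be technical.

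Immediate early genes are transcribed within minutes of a stimulus, without new protein synthesis. MAP kinases, or kinases that they activate, phosphorylate factors already bound at the promoters of these genes. The factors are chiefly ELK proteins with SRF at CArG boxes and CREB or ATF proteins at cyclic AMP response elements (CRE). The mRNAs of immediate early genes are short-lived, and many are bound by the ZFP36 family of decay factors. The FOS and JUN proteins pair as AP-1, EGR proteins bind GC-rich sites, and in monocytic cells these factors are known to take part in activation and macrophage differentiation. PML-RARA, the fusion protein of acute promyelocytic leukaemia, binds DNA through the retinoic acid receptor part, which recognises AGGTCA and related motifs.

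The 250 bases before the annotated start, from RefSeq on GRCh38.p14, were available for 34 of the 41 genes and for 27305 genes in all. Both strands were searched. The CRE TGACGTCA was found in JUND, MAFF and PPP1R15A, which is 8.82% of the members with a window against 1.77% of all windows. The CArG box was found in EGR1 and SRF (5.88% against 1.14%). The variants TGACATCA and TGACGTTT were searched because they are the known AP-1 and CRE-like elements of the JUN and FOS promoters. Their matches in JUN and FOS were thus given by the choice of motif, and their shares are no result. TGACATCA was found in JUN and ATF3 (5.88% against 2.45%) and TGACGTTT in FOS alone (2.94% against 0.458%). The EGR motif GCGNGGGCG was in 4 members (11.8% against 8.25%), AGGTCA in 7 (20.6% against 12.1%) and the AP-1 motif TGANTCA in 0 (6.6% of all windows). In the genes shown here, matches of different motifs did not overlap. A match is a description of letters in this window and not of binding. These stretches are shown because EGR1, JUND, MAFF and JUN are among the 7 members with the largest differences between hours. Each is written 5′ to 3′ on the gene's strand with the motif in capitals. The capitals mark the CArG boxes in EGR1 (chr5:138465344-138465435, plus strand) and SRF (chr6:43171209-43171268, plus strand). In JUND (chr19:18281785-18281852, minus strand), MAFF (chr22:38201910-38201977, plus strand) and PPP1R15A (chr19:48872333-48872400, plus strand) they mark the CRE. In JUN (chr1:58784077-58784144, minus strand) and FOS (chr14:75278734-75278801, plus strand) they mark the variant element. All lie upstream of the transcription start, outside the exons of the gene named.
EGR1: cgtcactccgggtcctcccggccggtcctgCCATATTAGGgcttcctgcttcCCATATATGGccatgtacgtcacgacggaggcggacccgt
SRF: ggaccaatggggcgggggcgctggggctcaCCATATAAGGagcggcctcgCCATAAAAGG
JUND: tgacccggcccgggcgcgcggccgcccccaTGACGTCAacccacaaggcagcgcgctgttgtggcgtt
MAFF: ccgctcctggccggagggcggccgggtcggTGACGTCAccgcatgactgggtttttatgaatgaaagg
PPP1R15A: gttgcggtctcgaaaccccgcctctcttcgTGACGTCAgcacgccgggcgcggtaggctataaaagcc
JUN: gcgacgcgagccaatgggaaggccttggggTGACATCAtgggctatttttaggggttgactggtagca
FOS: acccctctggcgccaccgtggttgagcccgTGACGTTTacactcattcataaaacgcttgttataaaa

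Values are MAS5 signals, which the authors scaled so that every array had the same trimmed mean of 1500.2. Differences are on the scale of log2(signal + 62.5), which understates the change of dim genes, and are given with their standard error (SE). The RARA probe set checked the labels, with a signal of 48.2 to 309.2 on GFP arrays and of 9281.2 to 58985 on the 8 arrays of PRWT and PR2VR cells. Among 8 measured markers listed for a myeloid line, PTPRC (16410.8 to 46039.3), ITGB2 (4818.8 to 20465.3), LYZ (3294.3 to 21335.7) and FCER1G (1075.9 to 4625.2) were bright on every array. SPI1 (17.2 to 536.1), MPO (56.7 to 582.3), CSF1R (379.3 to 934.6) and ITGAX (70.9 to 1007) were dimmer. The summed signal of the 8 was 31314.1 to 62011.8 on GFP arrays and 34306 to 83641.3 on fusion arrays. PTPRC had by far the highest median of them (30129.4, with ITGB2 next at 8802.8), so the sum is no test of cell identity. T cell markers summed to at most 2548.1 on any array and B cell markers to at most 3106.5. Erythroid and megakaryocyte markers summed to at most 945.4, and epithelium and fibroblast markers to at most 4343.6. Number 2 of 9 h was unlike the other arrays in all 3 constructs, with a median signal of 387.8 to 436 against 238.6 to 292.1. Its GAPDH probe sets had a 3′/5′ ratio, which rises as RNA degrades, of 2.21 to 2.75 against 3.82 to 12.9. Number 1 of PR2VR at 6 h also lay apart from its fellows on the second principal component, at 65.2. The set of 6 h number 2 lay at the other end (-36.8 to -41.1, with every other array at -0.28 or above). Its RARA signal was 11970.8 in PRWT and 9281.2 in PR2VR cells, below the other fusion arrays (29626.4 to 58985). This set was not left out as a whole in any fit. In bulk RNA, fewer responding cells and less RNA per cell cannot be told apart.

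The first comparison set the 8 fusion arrays against the 4 GFP arrays, over both hours. Members did not share a direction: 18 of the 35 were higher in fusion cells (47.6% of all genes were) and 17 lower (52.4% of all genes were). Their median difference was 0.10, beside -0.02 over all genes tested. It was -0.017 without number 2 of PR2VR at 6 h and 0.010 without the set of 9 h number 2. The highest values belonged to SGK1, RGS1, RGS2, FOS and HBEGF and the lowest to CREM. In limma with Benjamini-Hochberg adjustment over 13959 genes, 0 of 35 members passed at 0.05, where 1 gene of all passed (0.00716%). Arrays of the same hour and number deviated together, and with each such set of 3 arrays as a block 1 member, SGK1, passed, where 44 of all genes did (0.315%). At an unadjusted p under 0.05 there were 6 members without the block. Of these 5 were higher (14.3% of members, where 1.64% of all genes were) and 1 was lower (2.86%, where 1.5% of all genes were). With the block there were 11, of which 6 were higher (17.1%, where 4.47% of all genes were) and 5 lower (14.3%, where 3.93% of all genes were).

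SGK1, a serine/threonine kinase induced by serum and glucocorticoids, had a higher mean in fusion cells. It passed only with the sets as a block, where the difference was the same and its SE smaller. Here and below the signals of a construct are listed in the order 6 h number 1, 6 h number 2, 9 h number 1 and 9 h number 2. SGK1 gave 15777.3, 7442.2, 6785.4 and 3513.9 in GFP cells, 37035.6, 12518.8, 13325.4 and 5897.7 in PRWT cells, and 33538.3, 26525.7, 15689.4 and 9097.6 in PR2VR cells. Within each of the 4 sets both fusion arrays were above the GFP array, although the GFP and PRWT arrays overlapped at each hour when sets were pooled. The difference of the fusion mean from GFP was 1.16, 1.29, 1.08 and 1.05 in the 4 sets. The mean was 1.14 ± 0.37 (log2, SE, 8 arrays against 4), or 2.21-fold, with an adjusted p of 1.0 in limma, and 0.034 (SE 0.19) with the block. PR2VR alone differed from GFP by 1.37 ± 0.42, with an adjusted p in limma of 0.036 with the block (SE 0.22), where 41 of all genes passed (0.294%) and 1 passed without it. PRWT differed by 0.92 ± 0.42, with a limma adjusted p of 0.34 with the block. These comparisons share the GFP arrays. With the block kept, the call for both fusions remained without any 1 of 3 arrays (number 2 of PRWT and numbers 1 and 2 of PR2VR, all at 6 h) and was lost without any 1 of the other 9, where the difference was 1.04 to 1.18 and limma's adjusted p 0.085 to 0.43. It was also lost without the variance trend (adjusted p = 0.16 in limma) and without the set of 9 h number 2 (0.91). The call for PR2VR was lost without any 1 of 8 arrays, with adjusted p of 0.089 to 0.33 in limma.

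**Figure D1:**
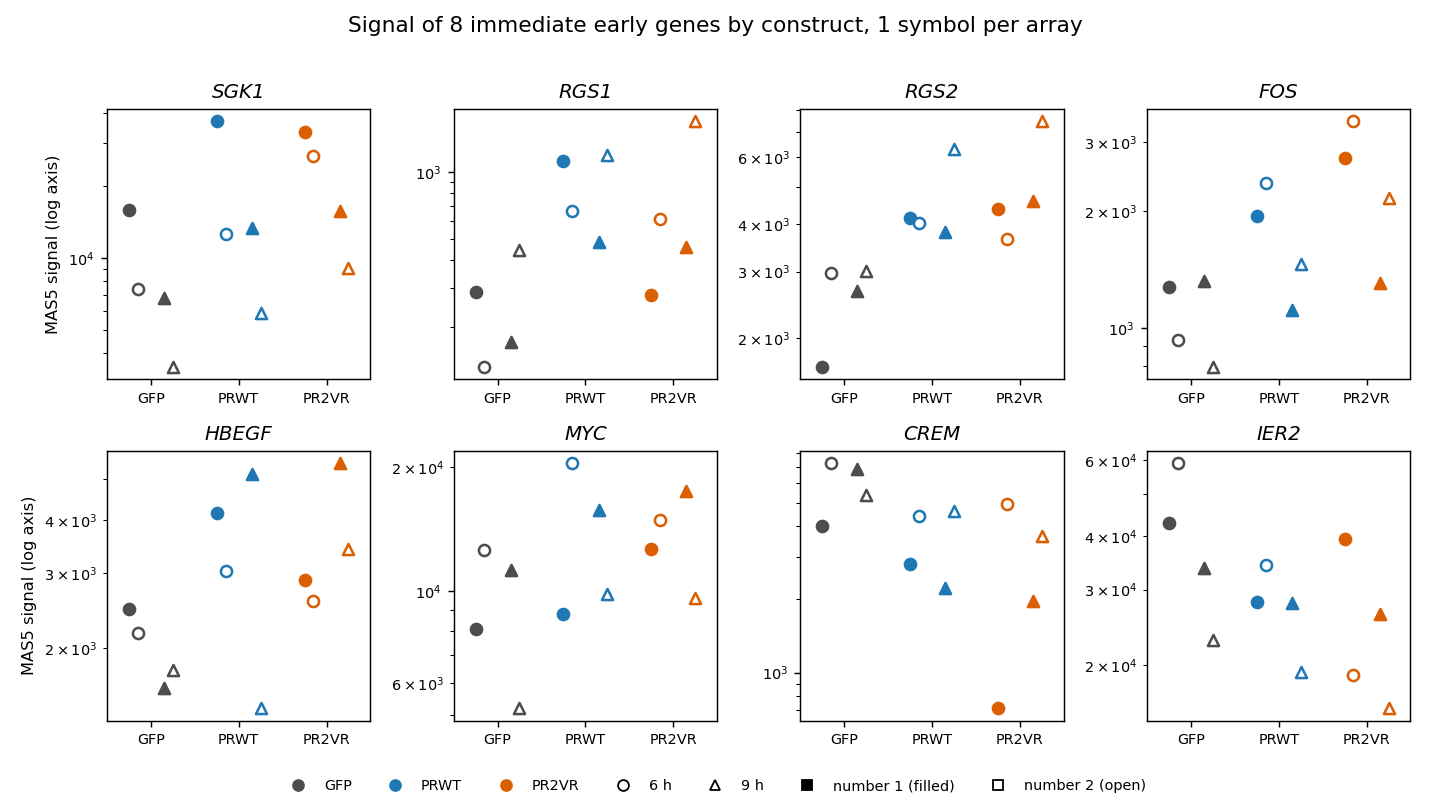
Signal (MAS5, log axis) of 8 immediate early genes, 1 symbol per array, in GFP, PRWT and PR2VR cells. Circles are 6 h and triangles 9 h, filled symbols number 1 and open symbols number 2. For RGS2 the 8 fusion arrays, from 3649.9 to 7464.9, all lay above the 4 GFP arrays, from 1683.8 to 3003.2, while every other gene shown overlapped.

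RGS1 and RGS2 encode GTPase-activating proteins that shorten signalling by G-protein-coupled receptors. RGS2 was the member whose fusion arrays and GFP arrays did not overlap, a pattern seen upward in 0.229% of all genes. It gave 1683.8, 2967.6, 2673.5 and 3003.2 in GFP cells, 4155.9, 4025.9, 3822.6 and 6327.5 in PRWT cells, and 4389.4, 3649.9, 4602.2 and 7464.9 in PR2VR cells. Its difference was 0.87 ± 0.26, with a limma adjusted p of 0.93, and 0.14 with the block. RGS1 gave 288.3, 132, 170.1 and 445.2 in GFP cells, 1114.6, 668.5, 480.3 and 1191.7 in PRWT cells, and 277.8, 615, 458.2 and 1690.1 in PR2VR cells. In every set its fusion mean was above GFP, but number 1 of PR2VR at 6 h was just below its GFP array. The difference was the largest of the members, at 1.36 ± 0.43 (adjusted p = 0.12 with the block in limma), and a second RGS1 probe set gave 1.03 ± 0.40.

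HBEGF encodes a ligand of the epidermal growth factor receptor. Its signals were 2471.7, 2166.6, 1607 and 1777.5 in GFP cells, 4164.4, 3035.5, 5143.9 and 1442.6 in PRWT cells, and 2888.1, 2580.4, 5468.4 and 3419.8 in PR2VR cells. Of the 8 fusion arrays 7 lay above every GFP array, and number 2 of PRWT at 9 h lay below them all. The difference was 0.71 ± 0.32 (adjusted p = 0.41 with the block in limma), and 0.63 ± 0.29 by a second probe set.

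Among the AP-1 genes, FOS encodes the partner that gives JUN its strong binding. FOS gave 1273.6, 933.7, 1320.5 and 796.3 in GFP cells, 1942.7, 2361.9, 1113.2 and 1458.9 in PRWT cells, and 2738.5, 3393.3, 1306.4 and 2161.4 in PR2VR cells. At 6 h all 4 fusion arrays were above both GFP arrays, whereas in the set of 9 h number 1 both were below the GFP array. The difference was 0.83 ± 0.26 over both hours (adjusted p = 0.25 with the block in limma), and 0.53 without the set of 9 h number 2. FOS differed from GFP by 0.61 ± 0.30 in PRWT cells and by 1.06 ± 0.30 in PR2VR cells.

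The other AP-1 genes were nearer to 0 or more scattered. FOSB, a FOS relative, differed by 0.59 ± 0.74, and FOSL2, a relative without a strong activation domain, by -0.58 ± 0.41. FOSL1, of the same class as FOSL2, differed by -0.02 ± 0.26. JUN itself differed by 0.25 ± 0.34, JUND by 0.12 ± 0.25 and JUNB, a weaker activator than JUN, by -0.26 ± 0.30. FOSB and JUN had positive values and FOSL2 negative ones in 4 of 4 sets, and none of these 6 genes passed in limma with or without the block.

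CREM encodes modulators of cyclic AMP responses, among them the repressor ICER. Its signals were 4008.4, 7288.4, 6892.2 and 5389.6 in GFP cells, 2805.3, 4413.4, 2237.1 and 4641.6 in PRWT cells, and 713.3, 4958.2, 1970.5 and 3631.8 in PR2VR cells. Each fusion array was below the GFP array of its set, and number 1 of PR2VR at 6 h was the lowest by far. The difference was -1.04 ± 0.44 (adjusted p = 0.26 with the block in limma), and -0.70 without that array. The other 4 CREM probe sets above the filter gave -0.48, -0.38, -0.17 and -0.08. ATF3, a stress-induced factor of the same class, differed by -0.16 ± 0.24.

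IER2 and IER5 encode related nuclear proteins of the early response. IER2 gave 42879.4, 59087.8, 33675.8 and 22975.1 in GFP cells, 28010.8, 34304.5, 27947.4 and 19357 in PRWT cells, and 39307.4, 19013.2, 26378.9 and 15908.2 in PR2VR cells. Within every set both fusion arrays were below GFP. IER2 differed by -0.57 ± 0.27 (adjusted p = 0.44 with the block in limma). IER5 gave 17324.9, 18480.7, 17859.4 and 11999.2 in GFP cells, 15980.4, 17063.5, 14252.6 and 8945.4 in PRWT cells, and 11311.7, 11900.3, 12764.4 and 11117.9 in PR2VR cells. Each of its fusion arrays was also below the GFP array of the set, and the difference was -0.35 ± 0.23.

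MYC, the growth-promoting transcription factor, gave 8092.1, 12583.6, 11290.3 and 5203 in GFP cells, 8831.7, 20491.4, 15787.6 and 9847.6 in PRWT cells, and 12672.5, 14885.8, 17486.7 and 9633.4 in PR2VR cells. In every set both fusion arrays were above the GFP array. The difference was 0.58 ± 0.32 (adjusted p = 0.31 with the block in limma), and it was 0.55 ± 0.37 in PRWT cells and 0.60 ± 0.37 in PR2VR cells.

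The EGR genes encode zinc finger factors, NAB2 their corepressor and SRF the factor that binds CArG boxes. EGR1 gave 13791.5, 5142, 4757.3 and 3132.7 in GFP cells, 12696.7, 4796.4, 7315.1 and 3702 in PRWT cells, and 10410.5, 18199.4, 5667.5 and 2254.8 in PR2VR cells. EGR1 differed by 0.23 ± 0.39, and by -0.12 without number 2 of GFP at 6 h, so its direction rested on 1 array. EGR3 differed by 0.34 ± 0.28 and NAB2 by 0.52 ± 0.59, both with positive values in 4 of 4 sets. SRF gave 9257.7, 11880.5, 5424.5 and 4912.2 in GFP cells, 7801.9, 9456.1, 4182.8 and 3967.3 in PRWT cells, and 4889.3, 7472.5, 6074.8 and 3874.9 in PR2VR cells. Of the 8 fusion arrays 7 were below the GFP array of their set, and SRF differed by -0.37 ± 0.24.

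PLK3, a stress-responsive kinase of the polo family, gave 399.7, 1090.4, 787.2 and 2818.9 in GFP cells, 450, 1121, 576.8 and 963.7 in PRWT cells, and 672.8, 321.8, 396 and 874.2 in PR2VR cells. The single highest array was number 2 of GFP at 9 h. PLK3 differed by -0.64 ± 0.43, by -0.20 without that array and by -1.08 without number 1 of GFP at 9 h. Its relative PLK2 differed by 0.23 ± 0.48. Of the mRNA decay factors, ZFP36 differed by -0.45 ± 0.61, ZFP36L1 by 0.54 ± 0.38 and ZFP36L2 by -0.18 ± 0.21. The antiproliferative genes BTG1 and TOB1 differed by 0.35 ± 0.26 and -0.08 ± 0.28. The orphan nuclear receptors NR4A1, NR4A2 and NR4A3 differed by -0.47 ± 0.45, 0.10 ± 0.29 and -0.46 ± 0.54. The small MAF proteins MAFF and MAFG, which pair with other leucine zipper factors, differed by -0.02 ± 0.29 and -0.10 ± 0.23. PPP1R15A, which directs the phosphatase that reverses the stress block on translation, differed by 0.38 ± 0.29, and by 0.72 ± 0.31 by a second probe set. The small GTPase RHOB differed by -0.37 ± 0.41 and the nuclear protein gene CSRNP1 by 0.25 ± 0.36. None of these genes passed in limma, with or without the block.

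**Figure D2:**
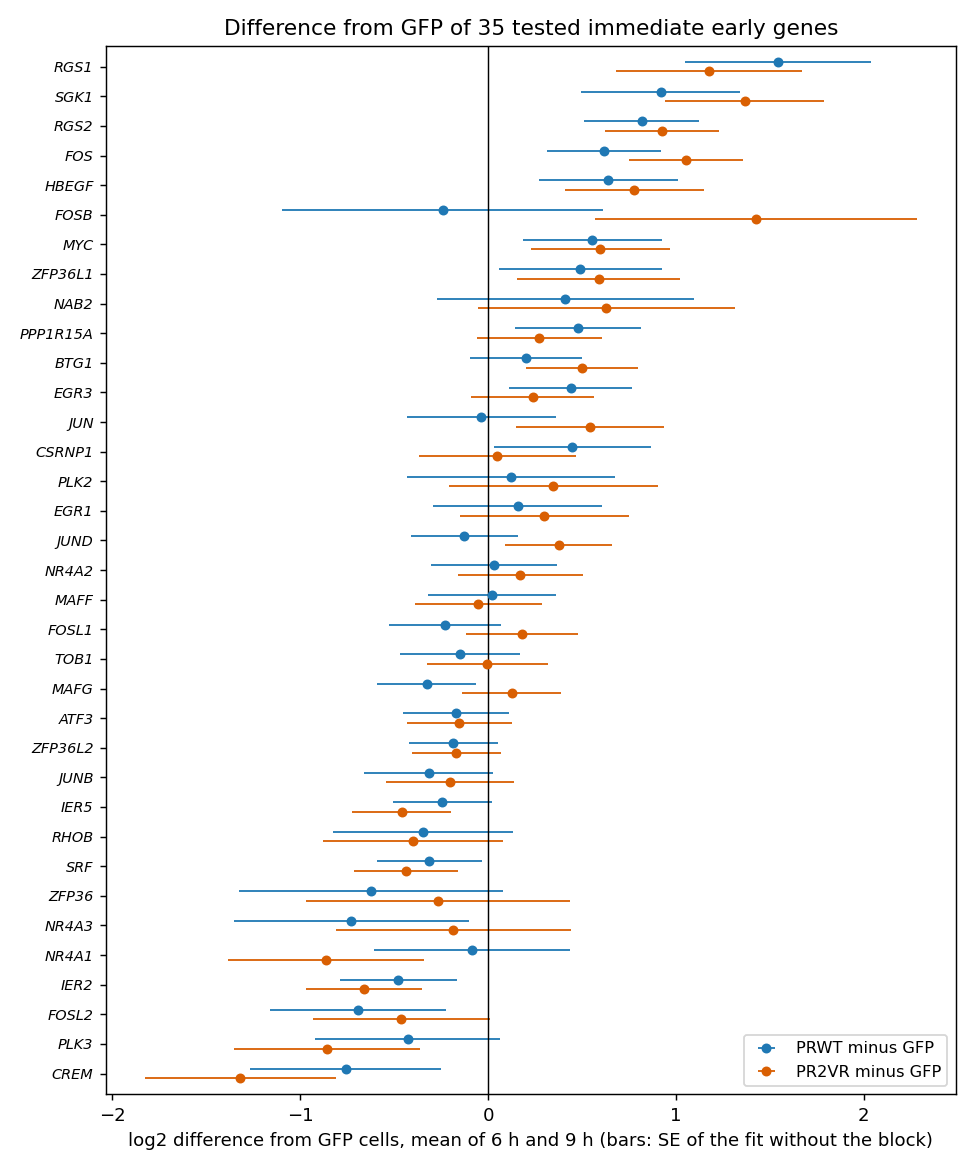
Difference from GFP cells (log2, mean of 6 h and 9 h) of the 35 tested members, for PRWT and for PR2VR, with bars for the SE of the fit without the block (4 arrays per construct). Genes are ordered by the mean of both forms, with RGS1 (1.55 for PRWT, 1.18 for PR2VR) first and CREM (-0.76 and -1.32) last; for PR2VR alone FOSB (1.43) and SGK1 (1.37) were above RGS1. Both sets of points share the GFP arrays.

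Set by set, arrays of the same hour and number were compared with each other. Of the 35 members, 11 were above GFP in 4 of 4 sets (31.4%, where 9.23% of all genes were) and 9 were below GFP in 4 of 4 (25.7%, where 10.7% of all genes were). The 11 were FOSB, JUN, EGR3, MYC, ZFP36L1, BTG1, SGK1, HBEGF, RGS1, RGS2 and NAB2. Those below were FOSL2, ATF3, IER2, IER5, ZFP36L2, NR4A3, SRF, RHOB and CREM. Among the 11, other probe sets above the filter gave -0.46 for ZFP36L1 and 0.21, 0.07 and -0.26 for JUN over both hours. Those of BTG1, HBEGF and RGS1 were positive. The median difference of the members was 0.28 and 0.17 in the sets of 6 h, and 0.03 and -0.10 in those of 9 h, beside 0.05, -0.03, -0.04 and -0.03 over all genes. The GAPDH ratio spanned 2.75 to 12.4 on GFP arrays and 2.21 to 12.9 on fusion arrays, and its part in these values was not tested.

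The fusion's difference from GFP was then compared between the hours. For the members the median was 0.14 at 6 h and -0.02 at 9 h, where 20 and 16 of the 35 were higher (50.4% and 45.7% of all genes were), and 0 members passed at either hour in limma, where 1 of all genes did (0.00716% at each hour). The change of the difference from 6 h to 9 h was tested itself. In limma 0 of 13959 genes passed (0%), and 0 of 35 members had an unadjusted p under 0.05. The lowest value was -0.92 ± 0.86 for PLK3, and the highest were 0.58 ± 0.96 for PLK2 and 0.58 ± 0.64 for HBEGF. FOS (-0.70 ± 0.53) and JUND (-0.73 ± 0.49) had a lower fusion difference at 9 h, and IER2 (0.44 ± 0.54) and SRF (0.32 ± 0.48) a higher one.

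PR2VR was compared with PRWT directly, 4 arrays against 4. In limma 0 of 13959 genes passed (0%) without the block and 0 with it. Of the members, 0 of 35 had an unadjusted p under 0.05 without the block and 3, all higher in PR2VR cells, with it (8.57%, where 3.22% of all genes were). Their smallest adjusted p was 1.0 and 0.72. The median difference was 0.12, beside -0.01 over all genes, with 23 members higher in PR2VR cells (48.7% of all genes were) and 12 lower (51.3% of all genes were). In 4 of 4 sets, 6 members were higher in PR2VR cells (17.1%, where 7.55% of all genes were) and 1 was lower (2.86%, where 6.93% of all genes were). By the probe sets used, the 6 were FOS, FOSB, FOSL1, JUN, JUND and NR4A3, and CSRNP1 was lower. The other AP-1 genes, JUNB (0.12 ± 0.34) and FOSL2 (0.23 ± 0.47), were higher in 2 and 3 of the 4 sets. With 4 arrays per form these values do not show that the forms act alike.

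FOSB had the largest of these values. It gave 16346.9, 2389, 1627.7 and 66.4 in PRWT cells and 37608.9, 6123.1, 2447 and 1470.3 in PR2VR cells, beside 8594, 3264.7, 1559.5 and 304.1 in GFP cells. Within each set the PR2VR array was above the PRWT array, by 1.20, 1.34, 0.57 and 3.57. The difference was 1.67 ± 0.86 (SE 0.41 and adjusted p = 0.72 with the block in limma). Number 2 of PRWT at 9 h, at 66.4, was below the signal of 168.9 that corresponds to the filter, and the difference was 0.92 without the set of 9 h number 2 and 1.02 without number 1 of PR2VR at 6 h.

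JUN and JUND encode the AP-1 partners of FOS proteins. JUN gave 38954.6, 20241.1, 8853.7 and 12465.6 in PRWT cells and 56715.8, 20897.5, 29263.9 and 12533 in PR2VR cells, beside 33392.7, 18292.5, 13460.4 and 11676.8 in GFP cells. JUN's difference of 0.58 ± 0.39 came from the number 1 arrays, since in the number 2 sets the forms differed by 0.046 and 0.0077. A second JUN probe set gave 0.57, but the remaining ones gave -0.10 and -0.31. JUND gave 26917.9, 22186.4, 8317.4 and 9594.7 in PRWT cells and 55016.7, 26053.7, 11906.6 and 11302.7 in PR2VR cells, beside 19694.6, 23877.3, 13899.2 and 10390.2 in GFP cells. It differed between the forms by 0.50 ± 0.29, and by 0.23 without number 1 of PR2VR at 6 h. FOS differed by 0.44 ± 0.30 and FOSL1 by 0.41 ± 0.30.

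MAFG gave 4958.2, 5893.9, 3418.8 and 3972.7 in PRWT cells and 8296.6, 5767.1, 6219.4 and 4744.9 in PR2VR cells, beside 5272.5, 6185.7, 5612.7 and 5422 in GFP cells. PR2VR was above PRWT in 3 of 4 sets, and the difference was 0.45 ± 0.26. NR4A1 gave 594, 261.6, 286.8 and 472 in PRWT cells and 210, 104.4, 594.7 and 91.5 in PR2VR cells, beside 277.9, 560.4, 605.4 and 291.1 in GFP cells. NR4A1 was lower with PR2VR in 3 of 4 sets, by -0.78 ± 0.52 over the 4 sets, and by -0.10 without the set of 9 h number 2. CSRNP1 gave 8774.5, 4675.9, 5563.6 and 2128.9 in PRWT cells and 3213, 4545.3, 5542.8 and 1955 in PR2VR cells, beside 4048.9, 2982.9, 4612.4 and 2478.7 in GFP cells. Its difference of -0.40 ± 0.42 came chiefly from the set of 6 h number 1. CREM differed by -0.56 ± 0.51, and by 0.11 without number 1 of PR2VR at 6 h.

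Between the hours the members ranged from -3.17 to 1.00 by the probe sets used, compared with -1.04 to 1.36 between fusion and GFP cells. Of the 35 members 23 were lower at 9 h (39.4% of all genes were) and 12 higher (60.6% of all genes were), and the median was -0.27 beside 0.13 over all genes. The lowest values were those of FOSB, JUND, SGK1, EGR1, EGR3, MAFF and JUN, all past -1 on the log2 scale, which is 7 of 35 members (20%) where 1.14% of all genes were. In limma 0 of 35 members passed, where 11 of all genes did (0.0788%), and with the sets as a random block 0 of all genes passed (0%). At an unadjusted p under 0.05, 11 members were lower at 9 h (31.4%, where 5.02% of all genes were), and 8 with the block (22.9%, where 2.08% of all genes were). Under quantile normalization, which moved the median of all genes to 0.05, the sign turned for FOSL1, ATF3, ZFP36L2, NR4A1 and NR4A2. All were near 0 by the probe sets used. For NR4A2 another, dimmer probe set gave 1.66 ± 0.49, and a further one gave -0.01.

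The hour is measured on separate sets, and 1 of the 9 h sets differed in signal and in GAPDH ratio as given above. Without the set of 9 h number 2 the members' median was -0.09, 22 were lower, and 4 were past -1, where 1.38% of all genes were. These were FOSB, JUND and EGR3, of the 7 above, and ZFP36 (-1.001, against -0.14 with all arrays). The smallest adjusted p of a member was then 0.91 in limma. The number 1 arrays of 9 h had a GAPDH ratio of 8.14 to 12.9, and the 6 h arrays of 3.82 to 8.28, ranges that meet at 1 array of each hour. For actin probe sets the 3′/5′ ratio was 7.79 to 10.7 in the set of 9 h number 2 and 12.5 to 58.2 elsewhere. Number 2 of PR2VR at 6 h had the lowest GAPDH ratio of the 6 h arrays (3.82) but an actin ratio of 56.9. The part of these ratios in the difference between hours was not tested.

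JUND gave a 6 h range of 19694.6 to 55016.7 (median 24965.5) and a 9 h range of 8317.4 to 13899.2 (median 10846.4), which do not overlap. Among members JUND and EGR3 showed this separation (5.71%, where 0.666% of all genes were lower at 9 h with no overlap), and both also did with the number 1 arrays of 9 h alone (5.71%, where 1.91% of all genes were). JUND differed by -1.33 ± 0.23 (6 arrays against 6, adjusted p = 0.060 in limma, 0.67 with the random block). Without number 2 of PR2VR at 6 h it passed, at -1.51 with an adjusted p of 0.015 in limma, and without the set of 9 h number 2 it was -1.28. Its difference was -0.85 in GFP cells, -1.45 in PRWT cells and -1.70 in PR2VR cells. The other JUND probe sets with a single symbol were dim, with mean signals of 83.2 to 144.8, and lay below the filter.

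EGR3, a zinc finger factor of the EGR1 family, gave 1029.2, 934, 442.7 and 274 in GFP cells, 1398.1, 1028.9, 580.5 and 549.8 in PRWT cells, and 839, 1498.7, 357.4 and 542.8 in PR2VR cells. Every 9 h array, at 580.5 or less, was below every 6 h array, at 839 or more. EGR3 differed by -1.19 ± 0.27 (adjusted p = 0.12 in limma), with -1.34 in GFP, -1.01 in PRWT and -1.23 in PR2VR cells, and by -1.17 without the set of 9 h number 2. EGR1 ranged from 4796.4 to 18199.4 at 6 h (median 11553.6) and from 2254.8 to 7315.1 at 9 h (median 4229.65). The EGR1 ranges overlapped and the difference was -1.21 ± 0.37, or -0.73 without that set. The other EGR1 probe sets gave -0.46 and 0.18.

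FOSB ranged from 2389 to 37608.9 at 6 h (median 7358.55) and from 66.4 to 2447 at 9 h (median 1514.9). The ranges met only where number 1 of PR2VR at 9 h was just above number 2 of PRWT at 6 h. FOSB had the largest difference of all members, -3.17 ± 0.70 (adjusted p = 0.11 in limma), which was -2.08 without the set of 9 h number 2. By construct it was -2.80 in GFP, -3.76 in PRWT and -2.96 in PR2VR cells. FOS itself differed by -0.55 ± 0.25, with -0.08 in GFP, -0.72 in PRWT and -0.83 in PR2VR cells.

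**Figure D3:**
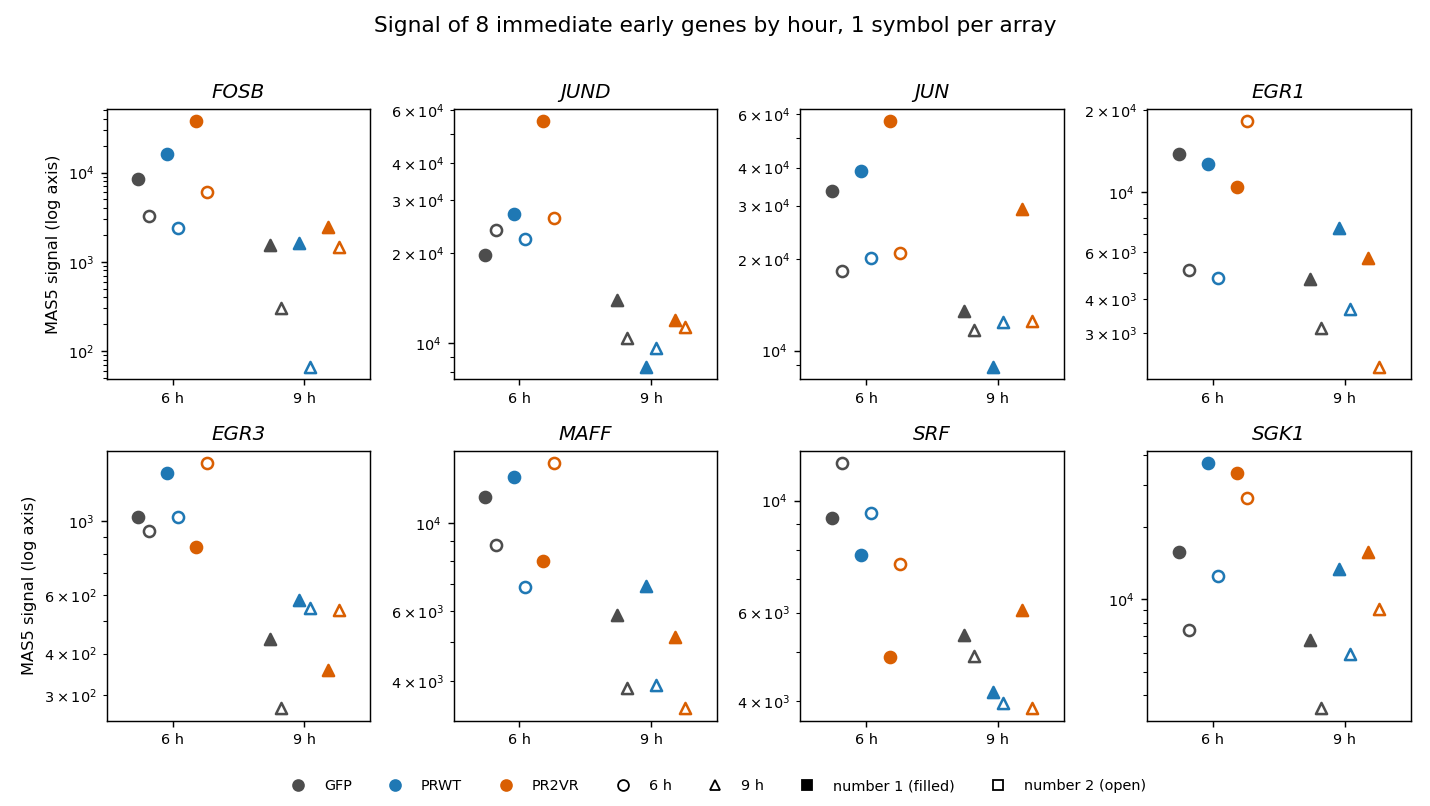
Signal (MAS5, log axis) of 8 members at 6 h and 9 h, 1 symbol per array, with colours for construct, filled symbols for number 1 and open symbols for number 2. JUND and EGR3 do not overlap between hours, and the median of FOSB is 7358.55 at 6 h and 1514.9 at 9 h.

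JUN ranged from 18292.5 to 56715.8 at 6 h (median 27145.1) and from 8853.7 to 29263.9 at 9 h (median 12499.3). Number 1 of PR2VR was the 1 array at 9 h within the 6 h range, and JUN differed by -1.08 ± 0.32 (-0.92 without the set of 9 h number 2). A second JUN probe set gave -1.02, and the remaining ones -0.56 and -0.42. SGK1 ranged from 7442.2 to 37035.6 at 6 h (median 21151.5) and from 3513.9 to 15689.4 at 9 h (median 7941.5). Its hour difference of -1.24 ± 0.35 was close to even over the constructs, with -1.14 in GFP, -1.27 in PRWT and -1.32 in PR2VR cells, and it was -0.76 without the set of 9 h number 2. SGK1 thus had both a higher value in fusion cells and a lower one at 9 h.

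MAFF gave 11622.2, 8816, 5856.6 and 3842.2 in GFP cells, 13062, 6914.5, 6929.3 and 3898 in PRWT cells, and 8009.8, 14163.5, 5151.5 and 3413.8 in PR2VR cells. The highest 9 h array lay just above the lowest 6 h array, both in PRWT cells. MAFF differed by -1.09 ± 0.28 (adjusted p = 0.18 in limma), or -0.76 without the set of 9 h number 2, while a second, dimmer MAFF probe set gave 0.21. SRF ranged from 4889.3 to 11880.5 at 6 h and from 3874.9 to 6074.8 at 9 h. SRF differed by -0.80 ± 0.23, with -1.01 in GFP, -1.06 in PRWT and -0.31 in PR2VR cells, and 0.58 by a second probe set. PPP1R15A differed by -0.66 ± 0.27, and a second probe set gave -0.67. Each of the 5 members with a CRE or CArG box shown above was lower at 9 h by the probe set used. Of all 30 tested members with a window 20 were lower, as were 3 of 3 with the EGR motif and 2 of 5 with AGGTCA. Among all tested genes with the CRE (298 genes) the median was 0.09 and 43% were lower, and with the CArG box (124 genes) 0.22 and 40.3%, beside 0.12 and 40.4% for all 11160 tested genes with a window. These promoters were chosen for display after the values were seen.

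Higher at 9 h were RHOB, ZFP36L1, PLK3, RGS1 and RGS2, none of which passed in limma. RHOB, a small GTPase induced by growth factors and stress, gave 135.4, 154.6, 289.6 and 519.3 in GFP cells, 107.4, 55.9, 304.2 and 396.9 in PRWT cells, and 103, 193.8, 95.3 and 370.7 in PR2VR cells. It was dim, and its highest array in each construct was number 2 of 9 h. RHOB differed by 1.00 ± 0.39, or 0.58 without that set. ZFP36L1 gave 444, 245.2, 769.8 and 488.9 in GFP cells, 992.4, 240.4, 852.1 and 889.5 in PRWT cells, and 382, 849.2, 743.8 and 1056 in PR2VR cells. The hours overlapped, and ZFP36L1 differed by 0.69 ± 0.35. By a second probe set RGS1 differed by 1.13 ± 0.38 and PLK3 by 0.01 ± 0.34. By the probe sets used, PLK3 (0.49 ± 0.40) and RGS1 (0.41 ± 0.40) turned to -0.09 and -0.27 without the set of 9 h number 2. RGS2 differed by 0.38 ± 0.25, or 0.12 without that set. MYC differed by -0.19 ± 0.30, and by 0.25 without that set. FOSL2 differed by -0.72 ± 0.38 by the probe set used (-0.38 without that set) but by 1.30 by another, and IER2 by -0.56 ± 0.25 (-0.26 without that set).

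**Figure D4:**
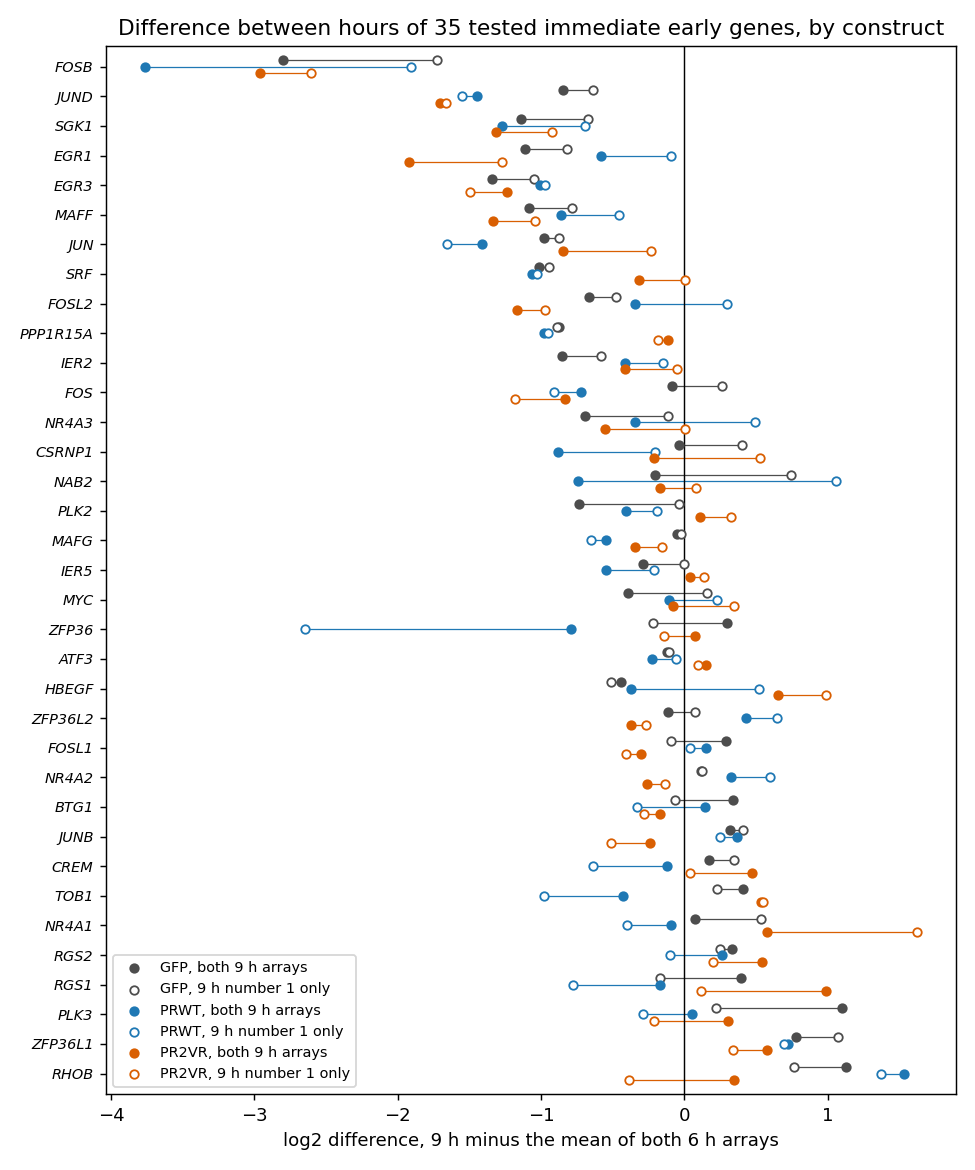
Difference of 9 h from 6 h (log2) of the 35 members in each construct. Filled points use both 9 h arrays and open points number 1 alone, each against the mean of both 6 h arrays. FOSB, JUND, SGK1, EGR1, EGR3, MAFF and JUN lie left of 0 in all 3 constructs with either choice.

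Directions were also counted over the constructs. Lower at 9 h in 3 of 3 constructs were 17 of 35 members (48.6%, where 19.7% of all genes were), and with number 1 of 9 h alone 12 members (34.3%, where 15% of all genes were). Past -1 in all 3 constructs were 3 of 35 (8.57%, where 0.258% of all genes were), namely FOSB, EGR3 and SGK1. Higher at 9 h in 3 of 3 constructs were 4 of 35 (11.4%, where 33.3% of all genes were). The median of the members was -0.12 in GFP, -0.41 in PRWT and -0.21 in PR2VR cells, beside 0.14, 0.09 and 0.11 over all genes. With number 1 of 9 h alone it was -0.06, -0.21 and -0.14.

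The wider pathway was read from 3 lists. Of 31 kinases and factors upstream of immediate early genes, such as MAP kinases, ELK proteins and CREB1, 22 were tested and 0 passed in either direction in limma, with or without the block. Their median was -0.05 for fusion against GFP (0 of 22 with an unadjusted p under 0.05, and 3 with the block, where 4.47% of all genes were higher and 3.93% lower) and 0.14 for 9 h against 6 h, the latter beside 0.13 over all genes. EP300, a histone acetyltransferase and coactivator, differed by 0.57 ± 0.28 between fusion and GFP cells, and RPS6KA5, the kinase MSK1 that phosphorylates CREB and histone H3, by 0.72 ± 0.39. Of 15 leucine zipper partners of AP-1, 11 were tested and 0 passed, with medians of 0.02 and 0.22. BATF, which pairs with JUN proteins without an activation domain, gave 10046.7 to 13475.1 in GFP cells and 4335.2 to 9488.2 in fusion cells, which do not overlap (0.251% of all genes were lower in this way). BATF differed by -0.72 ± 0.25 (adjusted p = 0.29 with the block in limma), and ATF2 by 0.39 ± 0.28.

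Of 19 other early response genes, 18 were tested and 0 passed in limma in either comparison. Their median was 0.03 for fusion against GFP and -0.21 for 9 h against 6 h, where 11 of 18 were lower (39.4% of all genes were). An unadjusted p under 0.05 was seen for 6 of the 18 between hours and for 2 with the block, where over all genes 10.1% were higher and 5.02% lower at this p, and 3.41% and 2.08% with the block. NAB1, the corepressor related to NAB2, differed by 0.57 ± 0.24 between fusion and GFP cells and by -0.88 ± 0.23 between hours. JMJD1C, a gene of the histone demethylase family, differed by 1.00 ± 0.34 between fusion and GFP cells.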

How the data were processed

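RNA of 12 samples was measured on Affymetrix arrays. Per the labels' protocols, Trizol RNA was made into biotin-labelled cRNA. The deposited intensity values are MAS5 signals on a linear scale, per the submitters' processing notes. Their common trimmed mean (2% at each end) shows that the authors' values were already scaled, and they were not normalized again. The table has 54675 probe sets (62 controls), of which 41091 have 1 symbol in the platform annotation. The number of arrays limits the precision.

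The members, the 3 pathway lists and the rules were chosen with earlier results of these data known. Values were taken as log2(signal + 62.5), the offset being the 20th percentile of all values. Genes were tested where the mean reached the 40th percentile of probe sets (a signal of 168.9), which left 13959 genes. Tests used limma 3.58.1 under R 4.3.3 (1 mean for each of 6 groups, contrasts, moderated variances with a trend, 6 residual degrees of freedom), with Benjamini-Hochberg adjustment and a threshold of 0.05. There were 8 comparisons. Set medians use the same values with the fusion arrays of a set averaged.

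Same-numbered arrays, per the titles, deviated together (r = 0.36, 0.15 and 0.21 at 6 h, 0.60, 0.63 and 0.56 at 9 h), so the numbers were taken to pair them, weakly so at 6 h. The 4 sets entered as a fixed block (4 residual degrees of freedom) and, for the hours, as a random block (duplicateCorrelation).

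Every array is given for 22 members: the 5 per direction with the smallest unadjusted p for fusion against GFP and for the hours, the 3 per direction for PR2VR against PRWT and for the change of the fusion difference, FOS, JUN, EGR1 and MYC, and any member that passed. From each pathway list the 2 genes with the smallest p for fusion against GFP are named. All other members are given by their differences. Promoter sequences are RefSeq's. The scripts were tested on simulated data. Alternatives were the block, offsets of 16 and 256, no filter, all probe sets, quantile normalization, no variance trend, and omission of each array or of a set.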

Additional observations from a re-analysis of the deposited data

How the results depend on the processing

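Over all genes, the replicate block moved the count of genes that passed in limma from 1 to 44 for fusion against GFP and from 1 to 41 for PR2VR against GFP, with 1 member each (SGK1) in place of 0, and from 11 to 0 for 9 h against 6 h; it changed no other call of a member. With all probe sets tested, the counts were 5 for fusion against GFP, 3 for PRWT, 2 for PR2VR and 2 for the fusions at 9 h. For the hours, 3 genes passed under quantile normalization, 2 without the variance trend, 0 without the set of 9 h number 2 and 1 without the set of 6 h number 1. The fusion count was 0 at 6 h without the set of 6 h number 1 and 0 at 9 h without the set of 9 h number 2. Leaving out 1 array gave 0 to 53 genes for the hours (53 without number 2 of PR2VR at 6 h, with 0 to 1 members), 1 to 9 for PR2VR against GFP and 0 to 2 for PR2VR against PRWT, the highest of each without that same array. The members' median for the hours was -0.36 to -0.11 without 1 array and -0.093 without the set of 9 h number 2, which also turned PLK3 to -0.093, RGS1 to -0.27 and MYC to 0.25. Without 1 array, CREM in PR2VR against PRWT ran from -1.24 to 0.11, EGR1 in fusion against GFP from -0.12 to 0.58 and MYC in the hours from -0.40 to 0.0068. The SGK1 call with the block was lost as given beside it, with SGK1 at 1.14 and 1.37 without the trend; the cause of these changes was not tested. CCN1 and CCN2 were too dim to test, and RHOB, PLK2, NR4A1, RGS1, NAB2 and FOSB were below a signal of 168.9 on at least 1 array.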
